A study of Mus musculus with 8 samples.

Results

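The stretch of mouse chromosome 6 from 123200000 to 123275000 (build GRCm39), a window of 75 kb, is the locus of the C-type lectin receptor genes Clec4n, Clec4d and Clec4e. Its members were chosen by position: every peak of acetylated histone H3 (H3ac) that any of the 4 libraries had in this window. The 4 lists held 30 such peaks of 193863 in all, 7 in Gel replicate 1, 8 in Gel replicate 2, 5 in CuNZ@Gel replicate 1 and 10 in CuNZ@Gel replicate 2. Merged wherever they overlapped by at least 1 bp, they formed 6 of the 81544 regions found over all chromosomes. The window was picked because earlier results of these data had shown wider H3ac after CuNZ@Gel here. Every difference between the treatments at this locus is therefore a description, and none was tested.

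The cells were RAW 264.7, a mouse macrophage-like line made by transformation with Abelson leukemia virus, so the groups share the genotype of a single established line. They were labelled with the treatment Gel or CuNZ@Gel, extracts were applied for 48 h, and chromatin was immunoprecipitated with an antibody against acetylated H3 after fixation with 1% formaldehyde for 10 min. Each treatment had 2 immunoprecipitated libraries, and no label ties them to separate cultures, so their spread may be only technical. The series title names a nanozyme hydrogel that is sprayed on diabetic wounds, and the labels do not spell out CuNZ. A single treatment protocol, which mentions extracts of CuNZ@Gel, stands for all samples. How Gel was applied is thus known from the treatment label alone.

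H3 acetylation marks the active promoters and enhancers of a cell. The 3 genes of this locus encode receptors that macrophages and other myeloid cells carry on their surface to sense microbial sugars and glycolipids. Clec4n encodes Dectin-2, a receptor for mannose-rich structures of fungi. Clec4e encodes Mincle, which binds the mycobacterial cord factor and the nuclear protein SAP130 released by dying cells, and Clec4d encodes MCL, which binds cord factor and pairs with Mincle. All of them signal through the Fc receptor gamma chain, the kinase Syk and the adaptor Card9, which activate nuclear factor kappa B and the production of inflammatory cytokines. Mincle is known as a receptor that macrophages make in larger amounts once they are stimulated.

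In the RefSeq gene table used here (GRCm38.p6, another build), the protein-coding genes follow each other in the order Clec4b2, Clec4n, Clec4d, Clec4e and Vmn2r19. Clec4d lies on the plus strand and Clec4e on the minus strand, so these neighbours are transcribed towards each other. Coordinates were not carried from that build to the build of the peaks, so no peak was assigned to a gene, exon, intron or promoter. The 300 bases around the start of transcription, 250 before it and 50 from it on, are shown because promoters are where H3ac is usually found. A sequence was matched by symbol for 2 of the 3 genes. Capitals mark the letters of any of 4 motifs, given after the sequences, which are from RefSeq, build GRCm38.p6, in the direction of the gene.
Clec4d: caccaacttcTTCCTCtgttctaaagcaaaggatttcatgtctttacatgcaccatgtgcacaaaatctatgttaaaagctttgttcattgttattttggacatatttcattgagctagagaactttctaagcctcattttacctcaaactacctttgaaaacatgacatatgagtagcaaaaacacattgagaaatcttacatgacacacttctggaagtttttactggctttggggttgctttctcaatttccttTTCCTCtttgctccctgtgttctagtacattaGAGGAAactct
Clec4e: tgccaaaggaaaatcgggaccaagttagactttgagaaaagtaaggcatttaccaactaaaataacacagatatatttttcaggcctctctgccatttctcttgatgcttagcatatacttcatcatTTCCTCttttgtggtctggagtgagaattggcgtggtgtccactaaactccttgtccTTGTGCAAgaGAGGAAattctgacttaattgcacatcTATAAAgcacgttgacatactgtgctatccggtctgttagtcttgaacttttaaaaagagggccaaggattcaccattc
Both promoters held the core GAGGAA of PU.1, the factor that directs the macrophage lineage. Searched on both strands, it began at bases -240, 8 and 40 in Clec4d and at bases -123 and -56 in Clec4e, counting the first transcribed base as 1 and the base before it as -1. Of all 32851 promoters of this length, 28.3% held it. The Clec4e promoter also held the C/EBP motif TTGCNNAA at base -66 (10.8% of all promoters), just upstream of a PU.1 core, and a TATA box, TATAAA, at base -29 (13.6%). Neither of these was in the Clec4d window. The AP-1 motif TGANTCA (7.81%) was in neither, and no matches of different motifs overlapped. A match describes letters only, and the absence of one says nothing of the factor.

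H3ac peaks covered more of the locus after CuNZ@Gel than after Gel. Peaks covered 5055 bp of the window in Gel replicate 1 and 4567 bp in Gel replicate 2. They covered 10090 bp in CuNZ@Gel replicate 1 and 9876 bp in CuNZ@Gel replicate 2. The groups did not overlap, and the gap between them was larger than the spread within either. The means were 4811 ± 345 bp (SD, n = 2) for Gel and 9983 ± 151 bp (SD, n = 2) for CuNZ@Gel, a ratio of 2.08. As a share of the window this was 6.41% ± 0.46 against 13.3% ± 0.202 (SD, n = 2). Merged within a group, peaks of either Gel library covered 5840 bp in 8 intervals, and those of either CuNZ@Gel library 10791 bp in 7 intervals. The libraries of a group had 3782 bp in common in Gel, 64.8% of its merged width, and 9175 bp in CuNZ@Gel, 85.0%.

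The lists as a whole went the other way. All peaks on chromosomes together covered 42.3 and 43.2 Mb in the Gel libraries and 26.2 and 22.2 Mb in the CuNZ@Gel libraries. The CuNZ@Gel libraries were also shallower by an indirect measure, since the lists hold no read totals. Depth was read from the commonest background of each list, solved with the summit fragments from the authors' fold and p, and was 4.62 and 4.28 in Gel against 3.45 and 2.46 in CuNZ@Gel, counted in fragments. With every peak scaled to the depth of the shallowest library, all 30 peaks still passed its p limit, and the covered widths stayed 5055, 4567, 10090 and 9876 bp, since this step can drop a peak but not narrow it. Of 10194 windows of 75 kb with peaks in all 4 libraries, 40 or 0.392% had more bases covered in each CuNZ@Gel library than in either Gel library, and 9127 or 89.5% had fewer in each. The locus had the largest gain of all these windows, 5172 bp, followed by 2406 bp for a window on chromosome 10 from 51350001 to 51425000. Windows were laid end to end in step with that of the locus, so other loci may be cut at an edge while this one is whole. The median over all windows was -1198 bp. The locus was chosen for this difference, so nothing is read from its rank.

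**Figure D1:**
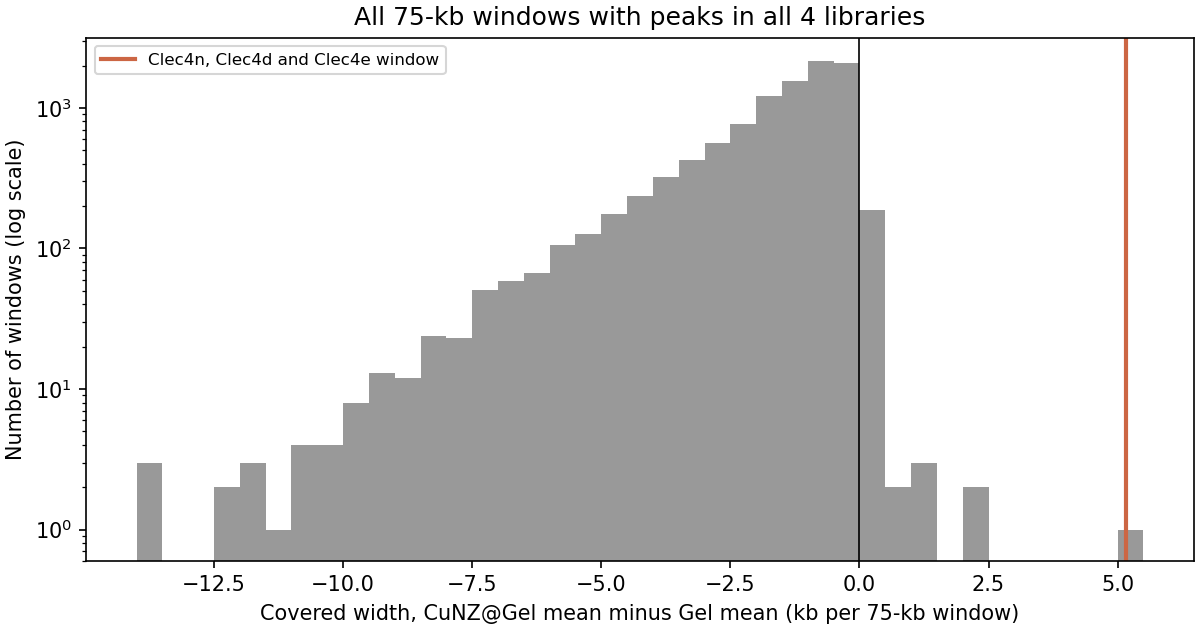
Difference of covered width between CuNZ@Gel and Gel (means of 2 libraries each, kb, horizontal axis) for all 10194 windows of 75 kb with peaks in all 4 libraries, as the number of windows per bin of 500 bp on a log scale. The coloured line marks the locus at 5172 bp, to the right of every other window, and the black line marks no difference. Windows were laid end to end in step with that of the locus.

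The peaks fell into 2 clusters with none between them. The cluster at lower coordinates held 5 regions between 123230061 and 123245121, and the other held 1 region from 123264433 to 123267546. The gap of 19311 bp that separates them had no peak in any library. Outside the window, the nearest peak at lower coordinates ended at 123100124, 99.9 kb before the window, and was in the Gel lists only, with widths of 501 and 187 bp. On the other side the nearest was a peak of 210 bp in Gel replicate 2, 961 kb beyond the window. The first and last peaks of the locus thus lay 130 and 968 kb from any other. Of the 3 regions with peaks in all 4 libraries, the first in order, from 123237805 to 123242849, is called the long region, the next, from 123243068 to 123245121, the middle region, and that of the second cluster the far region.

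**Figure D2:**
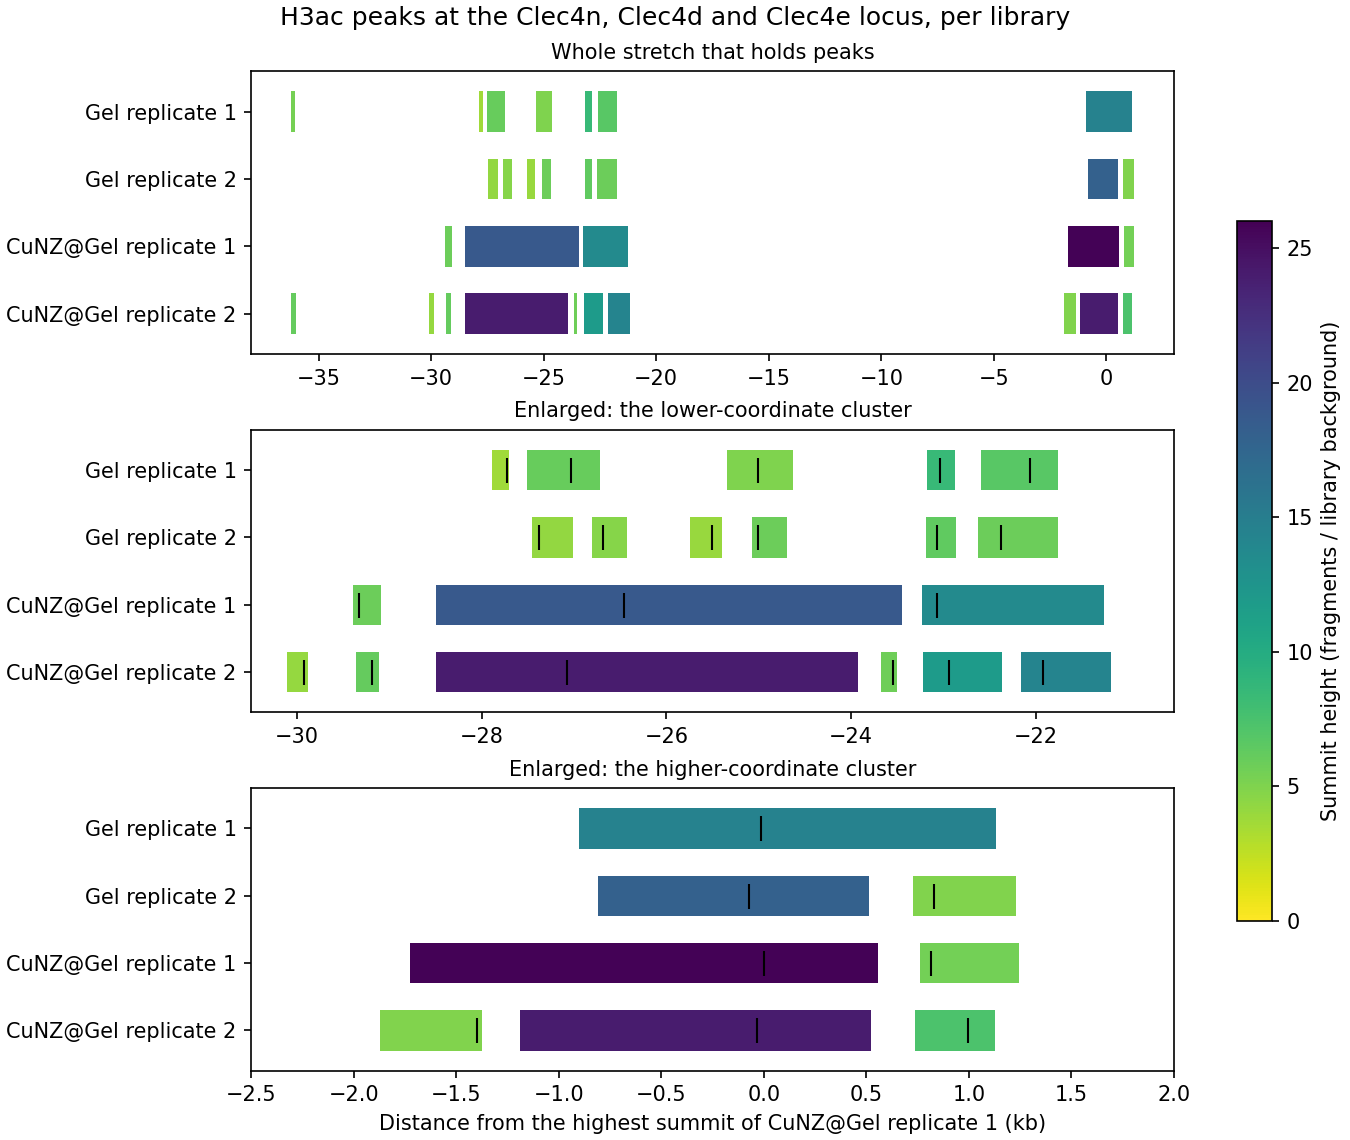
Each bar is an H3ac peak of the library named at the left, placed by its distance in kb from the highest summit of CuNZ@Gel replicate 1, coloured by summit height in multiples of the library background, and, in the enlarged panels, with its summit as a black line. The long region, at the left of the lower-coordinate cluster, is a row of short pale bars in both Gel libraries and an almost unbroken dark bar in both CuNZ@Gel libraries.

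The long region showed the largest change of shape, from several separate peaks in Gel to a nearly continuous domain in CuNZ@Gel. The Gel peaks were short and weak beside that domain, but not all were so within their own lists. Those lists had a median width of 436 and 433 bp and a median fold of 3.92 and 3.78. Peaks covered 1705 bp of the long region in Gel replicate 1 and 1562 bp in Gel replicate 2. In CuNZ@Gel they covered 5041 bp in replicate 1 and 4739 bp in replicate 2. Both CuNZ@Gel values lay far above both Gel values. The means were 1634 ± 101 bp and 4890 ± 214 bp (SD, n = 2), a ratio of 2.99. This was 33.8% and 31.0% of the region in the Gel libraries, against 99.9% and 93.9% in the CuNZ@Gel libraries. Both edges of the region were set by CuNZ@Gel peaks, so the high CuNZ@Gel shares follow in part from how it was defined.

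Gel replicate 1 had 3 peaks in the long region. The first ran from 123238411 to 123238600 (190 bp), with a fold enrichment of 3.21 as the authors give it, a −log10 p of 5.74 and its summit at 123238573. The next, from 123238787 to 123239583 (797 bp), was the highest, with a fold of 5.16, a −log10 p of 13.6 and its summit at 123239272. The last, from 123240958 to 123241675 (718 bp), had a fold of 4.27, a −log10 p of 9.77 and its summit at 123241292. A stretch of 1374 bp without a peak separated the second from the last, so the middle of the region was bare in this library.

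Gel replicate 2 had 4 peaks there, all narrower than 500 bp. The first, from 123238844 to 123239288 (445 bp), had a fold of 3.36, a −log10 p of 6.30 and its summit at 123238921. The second, from 123239492 to 123239872 (381 bp), had a fold of 3.97, a −log10 p of 8.21 and its summit at 123239616. The third lay from 123240553 to 123240904 (352 bp), with a fold of 3.14, a −log10 p of 5.58 and its summit at 123240794. The last peak, whose summit came within 5 bp of that of the last peak in Gel replicate 1, ran from 123241228 to 123241611 (384 bp) with a fold of 3.36, a −log10 p of 7.86 and its summit at 123241297. Its local background of 6.74 fragments was 1.58 times the library background, so its 25 fragments gave a lower fold than the 20 fragments of the second peak.

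In CuNZ@Gel replicate 1 the region was a single peak from 123237809 to 123242849 (5041 bp), with a fold of 11.6, a −log10 p of 50.6 and its summit at 123239846. Only 43 of the 40075 peaks of that list were at least as wide, this one included. CuNZ@Gel replicate 2 had a peak from 123237805 to 123242374 (4570 bp), with a fold of 12.5, a −log10 p of 48.7 and its summit at 123239225. It was among the 50 widest of 34693. A second, small peak followed in this library from 123242627 to 123242795 (169 bp), with a fold of 3.34, a −log10 p of 5.38 and its summit at 123242754. In the Gel lists, the widest peak of the region, of 797 bp, had 16068 peaks at least as wide among 58612, itself included.

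Both CuNZ@Gel libraries had fewer peaks in the long region than both Gel libraries, 1 and 2 against 3 and 4. Of the 21909 regions with peaks in all 4 libraries, 94 or 0.429% showed this order, and 5 or 0.0228% combined it with greater width in both CuNZ@Gel libraries. The CuNZ@Gel peaks of the region reached past the Gel peaks at either end. They began at least 602 bp before the first Gel peak of either library and ended at least 1120 bp after the last one. In CuNZ@Gel replicate 2 that end belonged to the small peak of 169 bp. A stretch of 252 bp without a peak separated it from the long peak, which ended at 123242374. No base of the region was under peaks in both Gel libraries and free of peaks in both CuNZ@Gel libraries. Within the region 2389 bp were covered in both CuNZ@Gel libraries and in neither Gel library, and 921 bp in all 4.

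The summit of the long region was also higher after CuNZ@Gel on each scale. The highest summit held 28 and 25 fragments in the Gel libraries, in the order of their replicates, and 65 and 59 in CuNZ@Gel, before any correction for depth. The libraries read as shallower thus had the larger numbers, with means of 26.5 ± 2.12 and 62.0 ± 4.24 (SD, n = 2), a ratio of 2.34. This order of summit fragments was found in 20 or 0.0913% of the 21909 regions, and the opposite order in 92.0%. In multiples of the library background the heights were 6.06 and 5.84 against 18.8 and 24.0, a ratio of means of 3.60. The highest fold of the region was 5.16 and 3.97 in Gel and 11.6 and 12.5 in CuNZ@Gel, a ratio of 2.64. Both CuNZ@Gel libraries were above both Gel libraries in 7.18% of the regions by height and in 4.55% by fold, and below them in 56.7% and 63.2%. At the summits with most fragments, the local background was 0.999 and 1.58 times the library background in Gel. In CuNZ@Gel it was 1.35 and 1.55 times. Its part in the result was not tested.

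The position of that summit varied between libraries. Picked by fragments, the highest summits lay up to 2072 bp apart, 2025 bp between the Gel libraries and 621 bp between the CuNZ@Gel libraries. Picked by the authors' fold, which names another peak in Gel replicate 2, they lay 344 bp apart in Gel and within 621 bp over all 4 libraries. In the far region all 4 highest summits lay within 71 bp by either measure.

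The middle region, 218 bp further on, was wider and, once scaled to the library background, higher after CuNZ@Gel, but its fragment numbers overlapped. Its covered width was 1136 bp in Gel replicate 1, 1185 bp in Gel replicate 2, 1980 bp in CuNZ@Gel replicate 1 and 1837 bp in CuNZ@Gel replicate 2. The groups did not overlap, with means of 1161 ± 34.6 and 1909 ± 101 bp (SD, n = 2) and a ratio of 1.64. The highest summits had 39 and 27 fragments in Gel and 47 and 35 in CuNZ@Gel. The value of Gel replicate 1 lay between the CuNZ@Gel values, so in fragments the groups could not be separated. In multiples of the library background they could, with 8.44 and 6.31 against 13.6 and 14.2, and likewise by the authors' fold, with 6.11 and 5.30 against 9.70 and 10.4. Of the 21909 regions with peaks in all 4 libraries, 7.18% were in this order by height and 4.55% by fold.

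Both Gel libraries split the middle region at nearly the same place. In Gel replicate 1 the first peak ran from 123243130 to 123243433 (304 bp), with a fold of 6.11, a −log10 p of 20.5 and its summit at 123243266. Its second peak, from 123243709 to 123244540 (832 bp), had a fold of 5.45, a −log10 p of 15.5 and its summit at 123244244. Gel replicate 2 had its first peak from 123243119 to 123243437 (319 bp), with a fold of 5.30, a −log10 p of 13.6 and its summit at 123243238. Both first summits were thus 28 bp apart. The second peak of Gel replicate 2, from 123243675 to 123244540 (866 bp), ended on the same base as in Gel replicate 1 and had a fold of 4.36, a −log10 p of 10.6 and its summit at 123243927.

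CuNZ@Gel replicate 1 joined these into a single peak from 123243068 to 123245047 (1980 bp), with a fold of 9.70, a −log10 p of 34.1 and its summit at 123243234. CuNZ@Gel replicate 2 had a first peak from 123243079 to 123243938 (860 bp), with a fold of 8.48, a −log10 p of 21.3 and its summit at 123243362. Its second peak ran from 123244145 to 123245121 (977 bp) and was the higher, with a fold of 10.4, a −log10 p of 28.6 and its summit at 123244385. The split in this library lay inside the second Gel peak. Both CuNZ@Gel libraries reached at least 507 bp beyond the Gel peaks at higher coordinates and at least 40 bp at lower coordinates, and both also covered the 237 bp between the Gel peaks that were bare in both Gel libraries. Together these made up the 784 bp of the region covered in both CuNZ@Gel libraries and in neither Gel library.

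**Figure D3:**
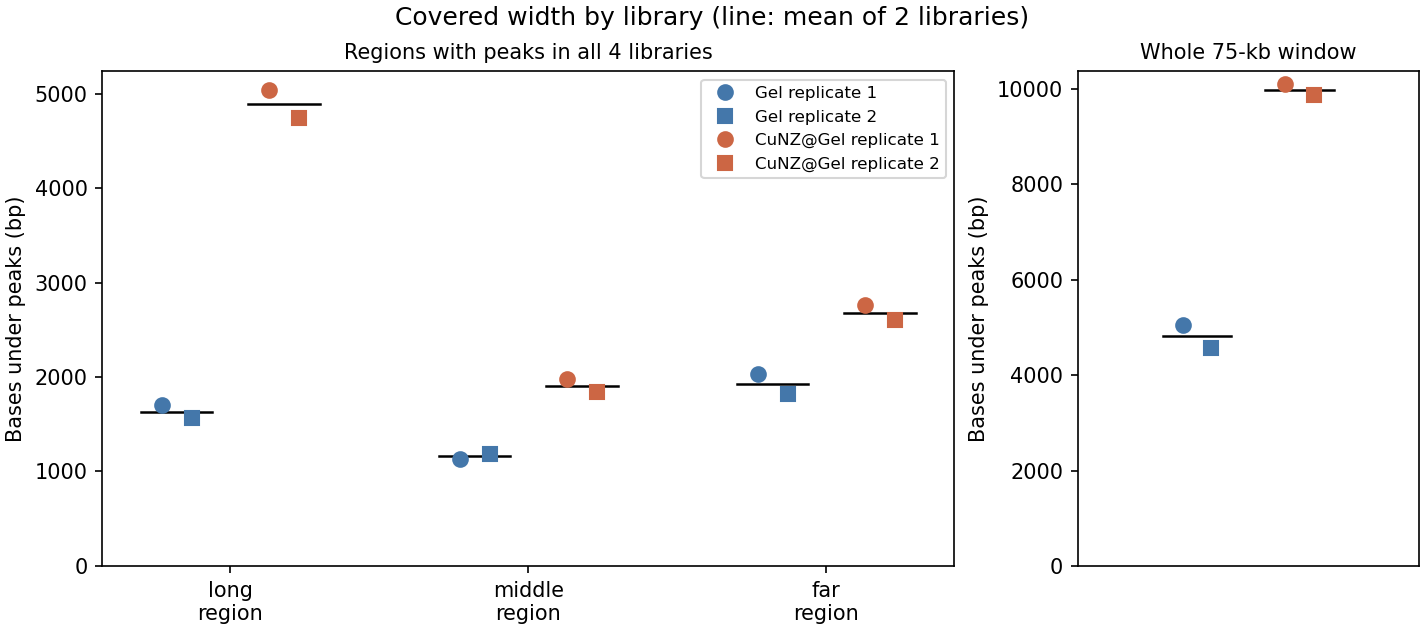
Bases under H3ac peaks (bp, vertical axes from 0) in the 3 regions with peaks in all 4 libraries and in the whole window, with a point per library and a line at the mean of the 2 libraries of a group. In each region and in the window both CuNZ@Gel points lie above both Gel points, and the largest gap is in the long region, 1634 against 4890 bp.

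The far region held the strongest Gel peaks of the locus and gained least in proportion. Its covered width was 2033 bp in Gel replicate 1, 1820 bp in Gel replicate 2, 2765 bp in CuNZ@Gel replicate 1 and 2599 bp in CuNZ@Gel replicate 2. The groups did not overlap, with means of 1927 ± 151 and 2682 ± 117 bp (SD, n = 2) and a ratio of 1.39. The highest summit held 67 and 77 fragments in Gel and 89 and 59 in CuNZ@Gel. The CuNZ@Gel values enclosed the Gel values, and the means of 72.0 ± 7.07 and 74.0 ± 21.2 (SD, n = 2) differed by less than the spread. In multiples of the library background the heights were 14.5 and 17.99 against 25.8 and 24.0, and by the authors' fold 12.1 and 14.8 against 16.96 and 15.6, so on both of these scales the groups were separate. Height divides the fragments by a library background that was lower in CuNZ@Gel. Of the 21909 regions with peaks in all 4 libraries, 7.18% were in this order by height and 4.55% by fold.

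In Gel replicate 1 the far region was a single peak from 123265403 to 123267435 (2033 bp), with a fold of 12.1, a −log10 p of 53.2 and its summit at 123266289. Gel replicate 2 had a main peak from 123265494 to 123266812 (1319 bp), with a fold of 14.8, a −log10 p of 67.6 and its summit at 123266230. A smaller peak followed from 123267030 to 123267530 (501 bp), with a fold of 4.16, a −log10 p of 8.92 and its summit at 123267132. The main summits of the Gel libraries were 59 bp apart. CuNZ@Gel replicate 1 had its main peak from 123264578 to 123266858 (2281 bp), with a fold of 16.96, a −log10 p of 82.9 and its summit at 123266301, and it was the strongest peak of the locus by p in any library. Its smaller companion, from 123267063 to 123267546 (484 bp), had a fold of 4.50, a −log10 p of 9.06 and its summit at 123267115. The companion lay at nearly the same place as in Gel replicate 2.

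CuNZ@Gel replicate 2 had 3 peaks in the far region. A weak first peak ran from 123264433 to 123264929 (497 bp), with a fold of 3.11, a −log10 p of 4.54 and its summit at 123264903. The main peak, from 123265111 to 123266825 (1715 bp), had a fold of 15.6, a −log10 p of 55.8 and its summit at 123266266. The last, from 123267040 to 123267426 (387 bp), had a fold of 5.37, a −log10 p of 10.4 and its summit at 123267296. The gain of width was on the side that faces the other cluster. Both CuNZ@Gel libraries began at least 825 bp before the first Gel peak, while the innermost CuNZ@Gel end lay 104 bp short of the outermost Gel end. The start in CuNZ@Gel replicate 2 was that of its weak first peak. Its main peak began at 123265111, also before the first Gel peak. Measured in each library, the peak-free stretch between the clusters was 20862 and 20953 bp in Gel and 19530 and 19311 bp in CuNZ@Gel.

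**Figure D4:**
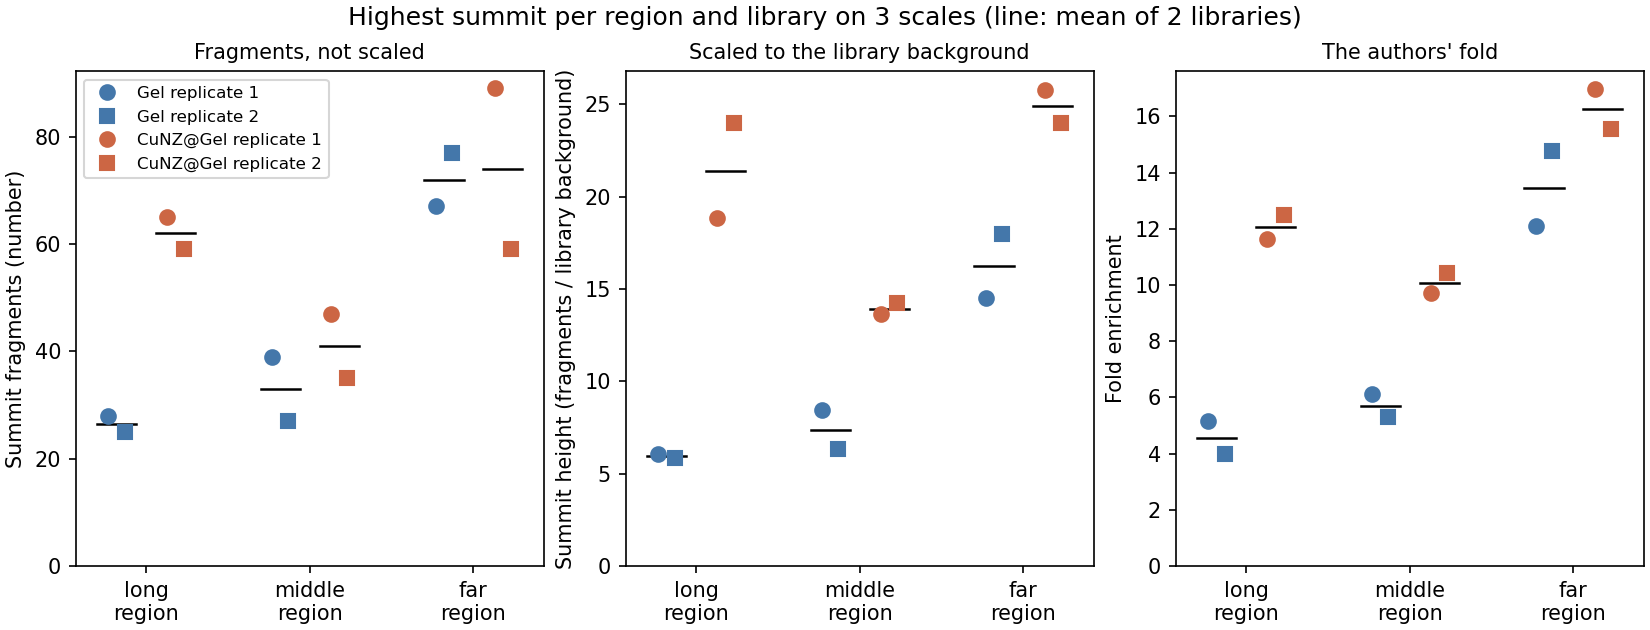
Highest summit in each of the 3 regions on 3 scales: fragments as solved, fragments divided by the library background, and the authors' fold enrichment, with a point per library and a line at the mean of 2 libraries. In fragments the groups are separate in the long region alone, and on both other scales the CuNZ@Gel points lie above the Gel points in all 3 regions.

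All 3 regions with peaks in all 4 libraries were wider in each CuNZ@Gel library than in either Gel library. Over all chromosomes 275 of 21909 such regions, or 1.26%, had this order and 74.5% the opposite one. In a ranking of the 21909 by gain of mean width, where the median was -298 bp, the long region stood at 1 with 3257 bp, the far region at 8 with 756 bp and the middle region at 9 with 748 bp. The long region was also among the 12 regions, or 0.0548%, that met this order with a mean at least 2 times that of Gel. Because the locus was chosen on this contrast, these shares are given beside the counts and nothing is read from them.

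The other 3 regions were small, at most 304 bp, and were not in all libraries. The region from 123230061 to 123230304 had a peak in Gel replicate 1 and in CuNZ@Gel replicate 2. In Gel replicate 1 it ran to 123230241 (181 bp), with a fold of 4.63, a −log10 p of 11.3 and its summit at 123230122. In CuNZ@Gel replicate 2 it ran from 123230074 (231 bp), with a fold of 4.15, a −log10 p of 7.19 and its summit at 123230132, only 10 bp away. It does not separate the treatments, and 4.62% of all 81544 regions likewise had a peak in 1 library of each group.

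The region from 123236193 to 123236416 (224 bp) was in CuNZ@Gel replicate 2 alone, with a fold of 3.18, a −log10 p of 4.28 and its summit at 123236369. Its 10 fragments were the fewest of any peak at the locus, and 46.1% of all regions were in a single library. The region from 123236905 to 123237208 was in both CuNZ@Gel libraries and in neither Gel library, an order found in 259 or 0.318% of all regions. CuNZ@Gel replicate 1 had all 304 bp of it, with a fold of 4.72, a −log10 p of 9.85 and its summit at 123236972. CuNZ@Gel replicate 2 had it from 123236944 to 123237189 (246 bp), with a fold of 4.52, a −log10 p of 7.88 and its summit at 123237107. These peaks, of 20 and 15 fragments, lay 596 bp before the long region.

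Base by base, the Gel peaks lay mostly within the CuNZ@Gel peaks. Bases in any Gel library and no CuNZ@Gel library came to 194 bp, and those in any CuNZ@Gel library and no Gel library to 5145 bp. Of the bases under peaks in Gel replicate 1, 92.4% were also under peaks in CuNZ@Gel replicate 1 and 91.3% in CuNZ@Gel replicate 2. For Gel replicate 2 these shares were 99.3% and 93.0%. In the other direction, 43.0% to 46.7% of the bases of a CuNZ@Gel library were covered in a Gel library. Of the 10985 bp covered in any library, 4063 bp were in both CuNZ@Gel libraries and neither Gel library, and 10 bp in both Gel and in none of the CuNZ@Gel libraries. The long region held 58.8% of those 4063 bp, the middle region 19.3% and the far region 15.9%. All 4 libraries covered 3534 bp.

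Of the nearest other regions with peaks in all 4 libraries, 5 on each side of the window, none was wider in both CuNZ@Gel libraries and 4 on each side were narrower in both. These counts are close to the 1.26% and 74.5% found over all chromosomes, and nothing is read from them. The closest at lower coordinates, from 122966411 to 122967392 and 233 kb before the window, was covered over 949 and 894 bp in Gel against 180 and 283 bp in CuNZ@Gel. The closest at higher coordinates, from 124390965 to 124393013 and 1116 kb beyond the window, was covered over 1907 and 2049 bp against 1860 and 1892 bp. The 5 on the lower side lay 233 to 349 kb from the window and the 5 on the higher side 1116 to 1364 kb.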

How the data were processed

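Each of the 4 deposited lists gives the peaks of 1 library, on build GRCm39 per the submitters' processing notes, which name fastp, SAMtools 1.17, MACS2 2.2.8 and deepTools 3.5.6. No source used here gives the aligner or how peaks were called. The deposited lists hold a score, a fold enrichment ratio, a −log10 p and a −log10 q for each peak. The score is 10 times the −log10 q, cut to a whole number, for 99.9856% or more of the peaks in each list, and the lowest −log10 q (1.30) corresponds to a q-value of 0.05. Fold and p are the authors' values and describe peaks within their own list. The deposited group lists and 4 input libraries were not used.

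Whole summit fragments and the background were solved from fold, (fragments + 1)/(background + 1), and the Poisson p, for 100% of the peaks at a relative tolerance of 0.0001, a step tested on simulated data. The commonest background of a list was taken as an indirect measure of depth, since the lists hold no read totals to check it against. Height is fragments over that background. Peaks on chromosomes were merged across libraries at an overlap of 1 bp. Computations used Python 3.11.15, NumPy 2.4.6, pandas 2.3.3 and SciPy 1.17.1.

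The window, its members, the alternatives and the motifs were chosen with earlier results of these data known. The planned rule reports every peak and region of the window and the 5 nearest regions on each side. No comparison of the treatments was tested, and 2 against 2 libraries cannot go below an exact two-sided permutation p of 0.333. The counts planned for promoters of signalling partners and of cell type markers needed an annotation of this build and were left out, so the labelled cell type was not checked.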

Additional observations from a re-analysis of the deposited data

How the results depend on the processing

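The gain of covered width in the window, 5172 bp, was 4982 bp with peaks at or above the median score of their list and 5666 bp with lists of equal length. It ranged from 4928 to 5416 bp without any 1 library. At equal depth it was 5172 bp, but that step can drop a peak and not narrow it. Widening the window by 25 kb or trimming it by 5 kb on each side could not change it, since no peak lay in those stretches. Per Mb of all bases that a list covers, the window held 119 and 106 bp in Gel against 385 and 444 bp in CuNZ@Gel, and the ratio of means was 3.68 in place of 2.08. The log2 ratio of the highest summits was 0.62 by height, 0.28 by the authors' fold and 0.040 by fragments, and by height it ranged from 0.47 to 0.78 without any 1 library. The mean number of peaks was 7.5 in each group. The difference was -1 at or above the median score, 1.5 with lists of equal length, -0.5 with peaks joined over gaps of up to 500 bp, and -2.5 to 2.5 without any 1 library, so no direction is given. All 3 regions were wider in both CuNZ@Gel libraries in every setting run, as were the 2 that remain when gaps of up to 500 bp are joined, with the exception of a part of the far region. Without Gel replicate 1, whose single peak joins it, the far region fell into 2, and the smaller, covered over 501 bp in Gel replicate 2 and over 484 and 387 bp in CuNZ@Gel, was not wider. With peaks at or above the median score of their list, the gain of the far region was 507 bp in place of 756 bp. That of the long region was 3666 bp in place of 3257 bp, and that of the middle region stayed 748 bp. Regions wider in both CuNZ@Gel libraries over all chromosomes numbered 275 or 1.26%, and 160 or 1.14% at or above the median score. Without any 1 library they numbered 913 to 1784, or 3.77% to 6.53%, where fewer libraries have to be in this order. With widths per Mb of list coverage they numbered 12211 or 55.7%. There a region that kept its width gains because the CuNZ@Gel lists cover less. On that scale the window ranked 2 and not 1. The scalings per Mb, the settings for the rank, equal depth and equal list length for the 3 regions, and equal depth and left-out libraries for the count over all chromosomes were chosen after seeing the data. No paired analysis was possible because no result here comes from a test, and no label ties the libraries of the same number to each other. Depth limits the weakest peaks most: those of CuNZ@Gel replicate 2 rested on as few as 10 fragments, and a region without a peak may lie below the calling limit of its library.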
